A study of Anas platyrhynchos with 3 samples.

Results

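Merkel cells are mechanosensory cells of the skin that form contacts with slowly adapting touch afferents and, like neuroendocrine cells, store peptides in dense-core granules. In the mouse, the basic helix-loop-helix factor ATOH1 specifies them from epidermal progenitors, and further transcription factors, among them POU4F3, SOX2, ISL1, INSM1 and GFI1, belong to their differentiation programme or to that of the related hair cell. Chromogranins (CHGA and CHGB) are the acidic proteins that fill the granules, and the prohormone convertases PCSK1 and PCSK2 cut peptide precursors inside them. In birds, Merkel cells have been described in the dermis, and the bill skin of ducks is densely supplied with touch receptors.

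These genes were examined in poly(A) RNA of bill skin from embryos of the Pekin duck (Anas platyrhynchos), a domestic breed kept here without any treatment or genetic change. Eggs were incubated at 37 °C, and the embryos, at embryonic day 24 to 26, were taken once they had pierced the inner membrane of the shell, which happens 24 to 48 hours ahead of hatching. A single group of 3 biological replicates was measured, with no control group, so levels were compared between genes within a library and each gene's spread was described between libraries. Of the 10 Merkel cell genes asked for, chosen by symbol, 7 had a row under their symbol among 14938 genes: CHGB, CHGA, PCSK1, PCSK2, SOX2, POU4F3 and GFI1. ISL1 had no row under its symbol, but a row without a symbol carried the gene number of ISL1 in the RefSeq gene table, and its values are given apart from the 7. ATOH1 and INSM1 were not analysed here.

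Levels are given in FPKM, fragments per kilobase of gene, scaled to library depth, which can be compared between genes. Counted reads per library ranged from 25268141 to 32247700. At least 1 FPKM in all 3 libraries was reached by 10605 of 14938 genes, all 7 members and ISL1 among them. That is the background for the counts of list genes passing this minimum below. The median of the 10605 genes was 13.3, 13.1 and 13.3 FPKM in replicates 1, 2 and 3. Keratinocyte markers (SFN at 1810 ± 131 FPKM; PERP, DSP and JUP next) and fibroblast markers (COL1A2 at 1087 ± 430; DCN, POSTN and LUM next) were abundant, every value after ± in levels being an SD with n = 3. All levels are those of whole skin. Fewer cells of a type and less RNA per cell cannot be told apart in such samples.

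The granule proteins led the set. CHGB stood at 142, 188 and 99.6 FPKM in replicates 1, 2 and 3, from 10321, 13401 and 5882 reads. Its mean of 143 ± 44.3 FPKM was rank 474 of all genes, above 96.8% of them, with replicate 2 the highest and replicate 3 the lowest. CHGA was at 29.3, 52.4 and 16.5 FPKM, from 1545, 2706 and 707 reads, again highest in replicate 2 and lowest in replicate 3. Its mean of 32.8 ± 18.2 FPKM lay above 83.3% of genes. Within each library CHGB exceeded CHGA, by 4.84-, 3.59- and 6.03-fold (mean log2 ratio 2.24 ± 0.38 SD), and the ranges of the pair did not overlap. With 3 libraries the exact two-sided sign-flip permutation test cannot give a p below 0.25, which was the value here.

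The convertases were lower than CHGB and differed from each other. PCSK1, the convertase that starts the processing of many precursors, was at 17.5, 27.2 and 16.9 FPKM (mean 20.5 ± 5.81) from 1266, 1933 and 995 reads. Replicate 2 stood above the other two, which were close to each other. PCSK2, which acts later in the same granules, was at 9.43, 7.37 and 8.19 FPKM (mean 8.33 ± 1.04) from 1387, 1062 and 978 reads, and replicate 2 was its lowest library. PCSK1 was therefore higher than PCSK2 in 3 of 3 libraries, by 1.85-, 3.69- and 2.07-fold (mean log2 ratio 1.27 ± 0.54 SD, exact sign-flip permutation p = 0.25, the smallest possible). In raw reads PCSK1 was below PCSK2 in replicate 1, close to it in replicate 3 and above it in replicate 2 (mean log2 ratio 0.25 ± 0.54 SD). The gene length implied by reads and FPKM is 2297 bases for PCSK1 and 4663 for PCSK2. The order held in 3 of 3 libraries thus rests on these lengths.

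Among the transcription factors, the SRY-box factor SOX2 was the highest. It was at 13.7, 10.5 and 9.71 FPKM from 581, 435 and 334 reads, with a mean of 11.3 ± 2.13 FPKM. Replicate 1 was the highest library. POU4F3, a POU-domain factor also required for survival of mouse hair cells, was at 4.62, 6.96 and 3.58 FPKM (mean 5.05 ± 1.73) from 170, 251 and 107 reads, with replicate 2 the highest. The LIM-homeodomain factor ISL1 was at 6.20, 4.68 and 4.11 FPKM (mean 4.998 ± 1.08) from 219, 162 and 118 reads, with replicate 1 the highest. The zinc finger repressor GFI1 was the lowest, at 1.09, 1.67 and 1.40 FPKM (mean 1.39 ± 0.29) from 78, 117 and 81 reads. For GFI1 the exact 95% Poisson intervals, which cover counting error only, were 0.864 to 1.36, 1.38 to 2.01 and 1.11 to 1.74 FPKM. Those of replicates 1 and 2 did not overlap, and that of replicate 3 overlapped both. The coefficient of variation of GFI1 was 20.9%, against 10.4% expected from counting at its mean reads.

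**Figure D1:**
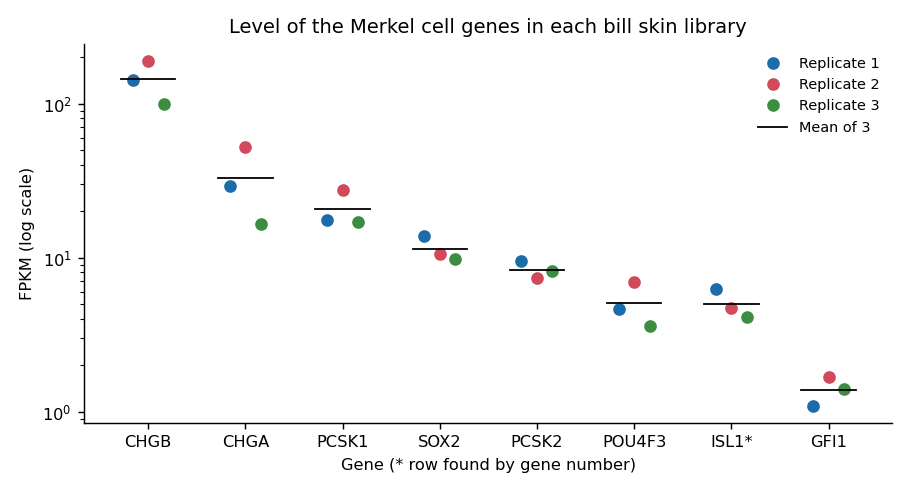
FPKM (log scale) of the 7 members and ISL1 in each of the 3 libraries (coloured points), with black bars for the means. CHGB lies between 99.6 and 188 FPKM, above every other gene shown, and GFI1 between 1.09 and 1.67, below every other.

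In the order CHGB, CHGA, PCSK1, SOX2, PCSK2, POU4F3, ISL1 and GFI1, 5 of 7 neighbouring pairs kept their order in 3 of 3 libraries. The ranges of 2 pairs overlapped. CHGA exceeded PCSK1 in replicates 1 and 2 (1.68- and 1.92-fold) but not in replicate 3 (0.977), and POU4F3 exceeded ISL1 in replicate 2 alone (0.744-, 1.49- and 0.87-fold). These neighbours did not differ beyond their spread. The step from PCSK2 to POU4F3 was 2.04-, 1.06- and 2.29-fold and thus almost closed in replicate 2. Implied lengths of 1120 to 2305 bases for the genes other than PCSK2 enter these comparisons as the authors' annotation set them.

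**Figure D2:**
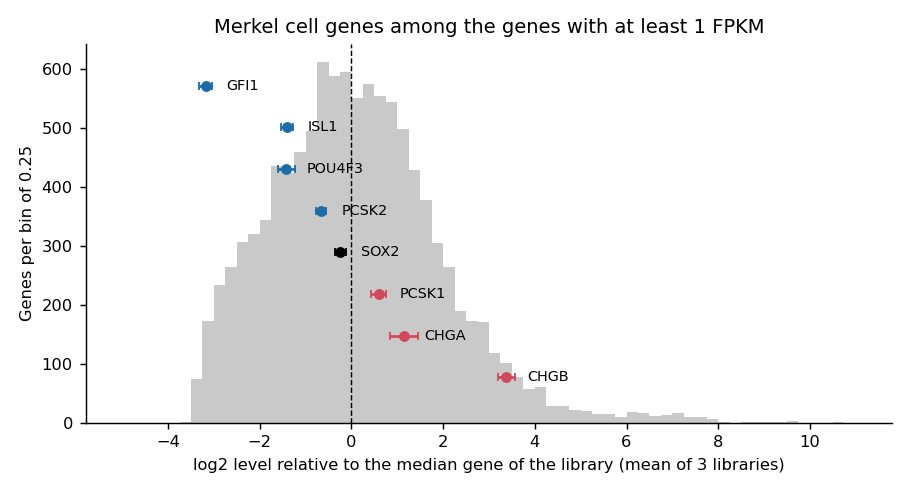
Histogram of the log2 level of 10605 genes relative to the median gene of their library (mean of 3 libraries), with the 7 members and ISL1 as points with SE bars at arbitrary heights. CHGB, CHGA and PCSK1 (red) lie above the median gene, SOX2 (black) is not apart from it, and PCSK2, POU4F3, ISL1 and GFI1 (blue) lie below.

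Relative to the median gene of the library, 3 of the 7 members were higher, 3 were lower and 1 was not apart in limma's moderated test, with p-values adjusted over all genes. Most genes pass this test: 43.7% of the 10605 genes were called above the median gene and 43.6% below, so the members' counts lie near the background, and the median member was at log2 -0.24. The calls of other gene lists below are to be read against the same shares. CHGB was 10.4-fold above the median gene (log2 3.38 ± 0.18 SE, adjusted p = 8.2e-06), higher in 3 of 3 libraries. CHGA was 2.21-fold above (log2 1.15 ± 0.30 SE, adjusted p = 0.011) and PCSK1 1.51-fold above (log2 0.60 ± 0.16 SE, adjusted p = 0.012). PCSK2 was 1.59-fold below the median gene (log2 -0.67 ± 0.10 SE, adjusted p = 0.001), POU4F3 2.69-fold below (log2 -1.43 ± 0.19 SE, adjusted p = 0.00047) and GFI1 9.08-fold below (log2 -3.18 ± 0.13 SE, adjusted p = 3.2e-06), each in 3 of 3 libraries. ISL1 was 2.65-fold below (log2 -1.41 ± 0.13 SE, adjusted p = 9.7e-05). SOX2 was at log2 -0.24 ± 0.12 SE (adjusted p = 0.11) with all libraries, and below the median gene without replicate 1 (log2 -0.36, adjusted p = 0.043). The median gene shifts with the minimum: without one, SOX2 was above it (log2 0.70) and PCSK2 (0.27) and POU4F3 (-0.48) were not apart, and at 5 FPKM CHGA (0.54) and PCSK1 (-0.0064) were not apart while SOX2 was below (-0.84).

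The members varied more between libraries than most genes did. The median SD of their log2 levels was 0.38, against 0.17 over all 10605 genes. CHGA had the largest SD, 0.83 on the log2 scale, above 99.3% of genes, with 3.17-fold between its highest and lowest library. CHGA's coefficient of variation of 55.6% compares with 2.46% expected from counting at its mean reads. POU4F3 (SD 0.47, above 93.9% of genes), CHGB (0.46, 93.4%) and PCSK1 (0.38, 88.8%) followed. PCSK2 was close to the median gene in its spread (0.18, above 52.7%), with SOX2 at 0.26 (74%), GFI1 at 0.29 (78.6%) and ISL1 at 0.30 (80.1%). For PCSK1 the spread rested on replicate 2, without which its SD was 0.034, and for SOX2 and ISL1 on replicate 1, without which it was 0.078 and 0.13. Without 1 library the SD also moved by over 1.5 times for CHGB (0.29 without replicate 3), POU4F3 (0.25 without replicate 2), PCSK2 (0.11 without replicate 1) and GFI1 (0.17 without replicate 1). Leaving out the most distant of 3 values lowers an SD by construction. The SD of CHGA, for example, fell from 0.83 to 0.58 without replicate 2. The shifts of CHGB, POU4F3, PCSK2 and GFI1 therefore do not show that their spread rested on 1 library.

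The biological coefficient of variation estimated by edgeR, which sets counting error apart, lay above the trend for CHGA, CHGB, PCSK1 and POU4F3. It was 0.327 for CHGA against a trend of 0.153 for genes at that abundance, 0.209 for CHGB against 0.148, and 0.195 for PCSK1 against 0.156. For POU4F3 it was 0.253 against 0.218. GFI1 (0.213 against 0.222), ISL1 (0.212 against 0.218), SOX2 (0.189 against 0.194) and PCSK2 (0.149 against 0.1597) lay at or just under the trend.

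**Figure D3:**
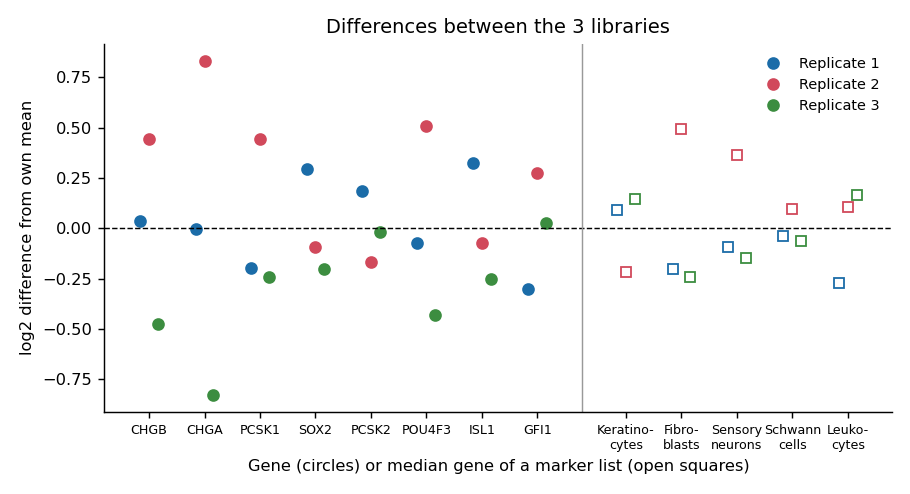
Difference of each library from the gene's own mean on the log2 scale for the 7 members and ISL1 (circles). Open squares give the median over markers of other cell types that passed the minimum. CHGB, CHGA, PCSK1 and POU4F3 are highest in replicate 2 and lowest in replicate 3, as are the sensory neuron, fibroblast and Schwann cell medians. The summed levels of these 3 lists are instead lowest in replicate 1. That order of libraries was held by 2 of 4 sensory neuron, 4 of 9 fibroblast and 3 of 9 Schwann cell genes, against 16.1% of all genes. The keratinocyte median is lowest in replicate 2, and the leukocyte median is highest in replicate 3. The sensory neuron and leukocyte medians rest on 4 genes each. The summed leukocyte list is highest in replicate 2 (20.7, 34.8 and 24.4 FPKM in replicates 1, 2 and 3).

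Of the 7 members, 5 were highest in replicate 2, as were 34.0% of all genes, and 5 were lowest in replicate 3, as were 31.0% of all genes. The order of replicate 2 over 1 over 3 was shared by CHGB, CHGA, PCSK1 and POU4F3, 4 of 7 members (57.1%), against 16.1% of all genes. GFI1 was also highest in replicate 2 but lowest in replicate 1. SOX2 and ISL1 instead ran from replicate 1 over 2 to 3, an order held by 14.9% of all genes, and PCSK2 was highest in replicate 1 and lowest in replicate 2. Of the 8 other Merkel cell genes over the minimum, 4 (PIEZO2, NCAM1, UCHL1 and NTRK3) had the order of SOX2 and ISL1, 2 (HES6 and LHX3) had that of CHGB, and EPCAM and ENO2 had others. Since replicates carry no order of their own, these counts describe which genes moved alike in 3 samples and no more.

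The same deviations can be read as ratios between members. Over the 28 pairs among the 7 members and ISL1, the SD of the within-library log2 ratio ran from 0.05 to 0.92 with a median of 0.50. The steadiest pair was SOX2 and ISL1, at 2.21-, 2.24- and 2.36-fold (SD 0.050, below the 0.13 that counting alone would give). Among the 10604 other genes, 48 (0.453%) kept as steady a ratio to ISL1 and 96 (0.905%) to SOX2. The next was CHGB and POU4F3, at 30.8-, 27.1- and 27.9-fold (SD 0.097, against 0.12 from counting), although CHGB differed 1.89-fold and POU4F3 1.95-fold between its highest and its lowest library. A ratio as steady as that was held to POU4F3 by 58 genes (0.547%) and to CHGB by 59 (0.556%). Library order and steadiness did not always go together: CHGA and PCSK1, which share an order, had an SD of 0.52, and SOX2 and PCSK2, which do not, had 0.16. The least steady pairs joined CHGA with PCSK2 (3.11-, 7.11- and 2.02-fold, SD 0.92), SOX2 (SD 0.82), ISL1 (0.79) and GFI1 (0.76). These pairs were picked out after their values were seen, all 28 having been computed, and 3 libraries are too few for a correlation.

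**Figure D4:**
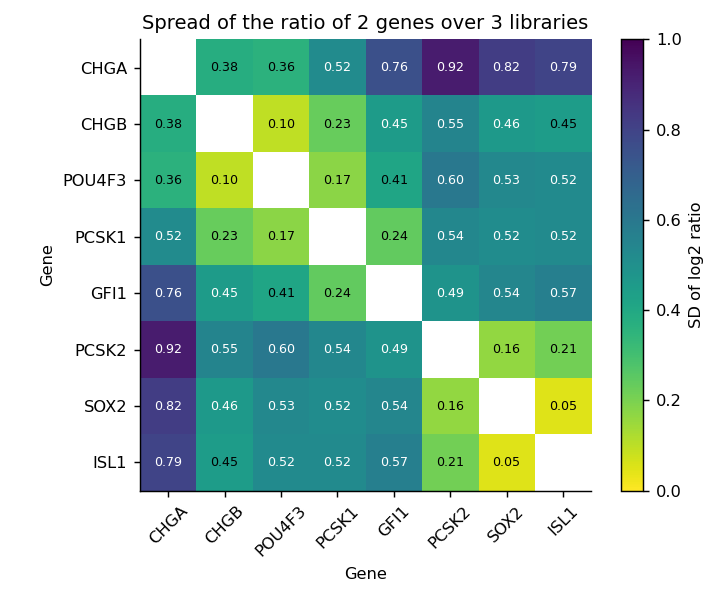
SD over the 3 libraries of the log2 ratio between each pair of the 7 members and ISL1 (colour and printed value; pale is steady). SOX2 with ISL1 and CHGB with POU4F3 are the steadiest pairs, at 0.050 and 0.097, and CHGA with PCSK2 the least steady, at 0.92.

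Markers of other cells moved between these libraries too, and their part in the pattern was not tested. All 4 sensory neuron genes over the minimum, of 11 measured, were highest in replicate 2, and the list summed to 11.9, 16.5 and 12.2 FPKM in replicates 1, 2 and 3. RUNX1 (3.59 ± 0.83 FPKM), RUNX3 (2.59 ± 0.12), NEFL (2.37 ± 0.77) and NTRK2 (2.11 ± 0.58) led it and were below the median gene. The fibroblast list summed to 2683, 4883 and 2813 FPKM, with 8 of 9 genes highest in replicate 2, 7 above the median gene, 1 below and 1 not apart. Keratinocyte markers summed to 4816, 4125 and 4678 FPKM, with 8 of 10 above the median gene, 1 below, 1 not apart and none highest in replicate 2. Schwann cell markers summed to 512, 888 and 545 FPKM, led by PMP22, MBP, MPZL2 (an adhesion gene also of epithelia, lowest in replicate 2) and FOXD3, with 6 of 9 highest in replicate 2, 4 above the median gene, 2 below (1 without replicate 1 or 3) and 3 not apart. In replicate 1, in which SOX2 was highest, SOX10 was at its lowest (12.5, 13.8 and 13.8 FPKM), while NGFR (14.6, 12.2 and 12.8) and ERBB3 (5.73, 2.86 and 4.10) were at their highest. The ERBB3 row rests on 43, 21 and 25 reads and implies a gene length of 238 bases, and that of FOXD3 implies 327.

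Several members are also used by other cells. Sensory neurons express ISL1 and chromogranins. Of the neuronal genes, STMN2 (0.483, 0.447 and 0.557 FPKM) and SNAP25 (0.308, 1.09 and 0.678) were among the 7 of 11 under the minimum. A part of neurons in the levels of ISL1, CHGA and CHGB was not tested. GFI1 is also a factor of blood cells. Of 10 leukocyte genes measured, 4 passed the minimum, led by CD74, CD3D, LAPTM5 and BLNK, all below the median gene, and the list summed to 20.7, 34.8 and 24.4 FPKM. Of these 4, CD74 and CD3D had the library order of GFI1, held by 17.9% of all genes, and LAPTM5 and BLNK were highest in replicate 3. The 6 leukocyte genes under the minimum were all highest in replicate 2, as were GFI1 and 34.0% of the genes over the minimum. Of the 6, SPI1 alone was lowest in replicate 1, as was GFI1. LCP1, CD4, CSF1R, PTPRC and CD3E were lowest in replicate 3. CD74 was not apart from the median gene without replicate 1 (log2 -0.52, adjusted p = 0.22) or 3 (-0.55, 0.16). The leukocyte antigen gene PTPRC was at 0.315, 0.565 and 0.18 FPKM. A part of leukocytes in GFI1 was not tested. Nor was a part of Schwann cells or other cells in SOX2, with the Schwann cell marker SOX10 at 13.4 ± 0.72 FPKM.

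Hair cells share ATOH1, POU4F3 and GFI1 with Merkel cells. Of 13 hair cell genes measured, 9 were under the minimum, which 10605 of all 14938 genes reached. No library held more than 2 reads of the mechanotransduction genes TMC1 or TMC2, nor more than 5 of OTOF or OTOG. MYO6 (26.5 ± 4.18 FPKM), a myosin with wide epithelial use, was above the median gene, while SLC26A5 (8.83 ± 1.14), MYO7A (3.57 ± 1.58) and the LIM-homeodomain factor LHX3 (1.75 ± 0.58) were below it. LHX3 was at 1.81, 2.30 and 1.14 FPKM from 45, 56 and 23 reads, highest and lowest in the same libraries as POU4F3. That order was held by 16.1% of all genes, and MYO6, SLC26A5 and MYO7A each had another.

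The 6 relatives of the factors that were measured, none of them a SOX or ISL factor, had few or no reads. POU4F1 and POU4F2, the POU4 factors of sensory and retinal neurons, had at most 1 and 2 reads per library, and their rows imply gene lengths of 240 and 259 bases, far shorter than POU4F3 at 1168. The GFI1 paralog GFI1B had 4, 8 and 2 reads, ATOH7 at most 2, and NEUROD1 and NEUROD6 had none. All 6 relatives measured, of 16 listed, were under the minimum. Of the POU4 and GFI factors measured, POU4F3 and GFI1 were those over 1 FPKM.

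The genes that regulate or partner ATOH1 lay on both sides of the median gene, as did genes in general. Of 18 measured, 16 passed the minimum, 7 were above the median gene, 7 below and 2 not apart. These counts lie near the background of 43.7% above and 43.6% below over all genes tested. The median of the 16 was at log2 0.085 relative to the median gene. The inhibitors of helix-loop-helix factors ID3 (125 ± 3.44 FPKM) and ID2 (86.2 ± 7.30) and the ATOH1 dimer partners of the E-protein class TCF4 (64.1 ± 6.17), TCF12 (41.1 ± 3.12) and TCF3 (27.3 ± 1.81) were above the median gene. Of the polycomb genes, whose loss in mouse epidermis increases Merkel cells, EZH2 (log2 0.53, adjusted p = 0.0031) and EED (0.49, 0.0053) were above it, EZH1 (-0.73, 0.0021) was below it and SUZ12 (-0.04, adjusted p = 0.69) was not apart. The Notch effectors HEY2 and HEYL were below it, HEY1 (16.7, 16.8 and 12.8 FPKM) was not apart (but above it without replicate 3, log2 0.36, adjusted p = 0.042), and HES5 had at most 3 reads. Sonic hedgehog (SHH) was at 0.0607, 0.159 and 0.0641 FPKM, and its targets GLI1 (3.66 ± 0.083 FPKM) and PTCH1 (2.82 ± 0.077) were below the median gene.

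**Figure D5:**
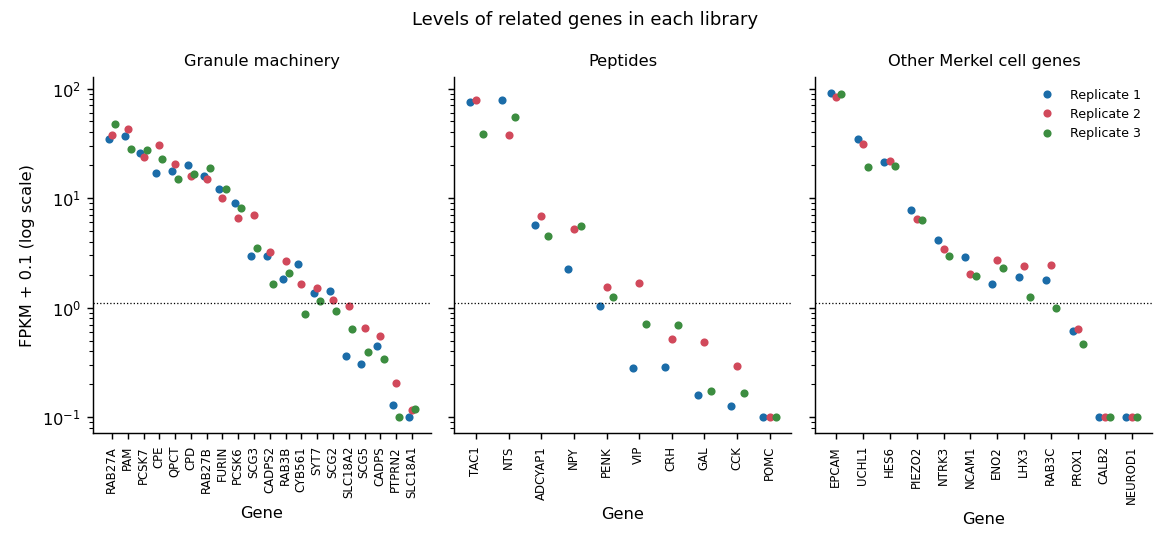
FPKM + 0.1 (log scale) of the genes of the granule machinery, of granule peptides and of other Merkel cell genes in each of the 3 libraries (coloured points), sorted by mean; the dotted line marks 1 FPKM. RAB27A (39.95 ± 6.89 FPKM), TAC1 (63.9 ± 22.1) and EPCAM (87.5 ± 4.03) lead the 3 lists.

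Genes listed as granule machinery, not all of them confined to granules, lay on both sides of the median gene. Of 20 granule machinery genes measured, of 26 listed, 13 passed the minimum. Of these, 7 were above the median gene, 5 (PCSK6, SCG3, CADPS2, RAB3B and SYT7) below and 1, the ubiquitous convertase gene FURIN, not apart. SCG2, SCG5, CADPS, PTPRN2, CYB561, SLC18A1 and SLC18A2 were under the minimum. Of all genes tested, 43.7% were above and 43.6% below. RAB27A, a granule transport GTPase, led, followed by the amidating enzyme PAM (35.9 ± 7.48 FPKM), the convertase PCSK7 (25.6 ± 2.03) and carboxypeptidase E, CPE (23.1 ± 6.78), which trims the ends that PCSK1 and PCSK2 leave. Without replicate 1, 4 in place of 7 were above the median gene, CPD, QPCT and RAB27B no longer passing. PCSK1 was close to CPE, at 1.05, 0.902 and 0.754 of its level. The granins were far below the chromogranins: SCG3 was at 2.87, 6.96 and 3.39 FPKM, SCG2 at 1.32, 1.08 and 0.829, and SCG5, the chaperone of PCSK2, at 0.204, 0.548 and 0.291. CHGB thus exceeded SCG2 by 107- to 174-fold and SCG3 by 27.1- to 49.4-fold. The vesicular monoamine transporter gene SLC18A2 was at 0.259, 0.93 and 0.54 FPKM, and SLC18A1 had at most 1 read.

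Of 10 peptide precursor genes measured, 4 passed the minimum. TAC1, the substance P precursor, was at 75.2, 78.1 and 38.5 FPKM and was lowest in replicate 3, where CHGB and CHGA were also lowest. NTS, the neurotensin precursor (56.9 ± 20.6 FPKM), was likewise above the median gene, but replicate 2 was its lowest library. ADCYAP1 (5.59 ± 1.16), whose row implies a gene length of 273 bases, and NPY (4.25 ± 1.81) were below the median gene. VIP and PENK, the precursor of enkephalins, did not pass the minimum, with VIP at 0.179, 1.57 and 0.616 FPKM from 5, 43 and 14 reads and PENK at 0.936, 1.45 and 1.15.

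Among 12 other Merkel cell genes measured, of 18 listed, 8 passed the minimum, 3 above the median gene and 5 below (all genes: 43.7% and 43.6%). EPCAM, an epithelial adhesion gene shared with keratinocytes, the ubiquitin hydrolase gene UCHL1 (28.1 ± 8.004 FPKM), also a neuronal gene, and HES6 (20.8 ± 1.07), an antagonist of Notch repressors, were above it. PIEZO2, the touch channel of mouse Merkel cells and their afferents, was at 7.73, 6.33 and 6.20 FPKM and below it. SOX2 exceeded PIEZO2 by 1.78-, 1.66- and 1.57-fold, a ratio with an SD of 0.091 on the log2 scale. This pair was picked by hand, and the share of genes with as steady a ratio to SOX2 was not counted. That share was 0.905% at an SD of 0.050 and 11.1% at 0.16. RAB3C, a synaptic vesicle GTPase, was under the minimum at 1.67, 2.37 and 0.893 FPKM from 23, 32 and 10 reads, and its row implies a length of 437 bases. CALB2 and NEUROD1 had no reads. The keratins that mark Merkel cells in mammals were not analysed here.

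The genes whose profile over the 3 libraries was nearest to the mean profile of the 7 members (log2 deviations -0.0089, 0.32 and -0.31) were PTPMT1 (distance 0.020), SSPN (0.021), EPHX2 (0.026), RUNX1 (0.029) and IQSEC3 (0.030), the distance being Euclidean on centred log2 levels. Of 9458 genes, 100 lay within 0.1 of the mean profile and 457 within 0.2, both wider than the distances of the 5 genes named. The mean profile is not held by all members, as SOX2 and PCSK2 were highest in replicate 1.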

How the data were processed

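The authors deposited raw read counts per gene and library, as the file headers name them. FPKM columns for the same 3 libraries stand beside them and are, per the file headers, the authors' own values. Tools in the submitters' processing notes, listed with no role, are edgeR 3.22.3, Subread 1.6.2 with featureCounts, STAR 2.5.4b, Trimmomatic 0.36 and CASAVA 1.8.2. Libraries were strand-specific, per the labels' protocols. Nothing used here names the genome build or annotation, and no sequence table was used, so neither coordinates nor sequences are printed. With TMM factors of 0.978, 1.01 and 1.01, count and FPKM implied a whole-number gene length (within 0.01 bases) for 100% of 14343 genes with reads, so FPKM carry TMM scaling. Reads of near-identical copies may have been dropped or split. Symbols are those of the table; 730 identifiers took one by gene number from the RefSeq table of the IASCAAS_PekinDuck_T2T assembly, ISL1 among them.

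The members and lists were chosen with earlier results of these data known. Log2(FPKM + 0.1) minus the library median was tested with limma 3.58.1 (R 4.3.3, intercept only, two-sided) over the 10605 genes reaching 1 FPKM in every library, with Benjamini-Hochberg adjustment over all of them and a threshold of 0.05. The pseudocount makes folds of low genes too small. The p-values measure only the spread between these 3 samples. In 5 simulations over 10605 genes, limma called 94% of genes lying 1.5-fold from the median gene with the right sign, 52.4% at 1.25-fold and 4.7% of genes lying at it. Named are all members, the 4 highest genes of each list, markers near 0 and the 5 nearest profiles; pairs and further list genes were named after their values were seen. Some results this rule names are left out. Alternatives covered the pseudocount, the minimum, edgeR 4.0.16's quasi-likelihood F test on counts with offsets for length and the median gene, DESeq2 1.42.0 size factors, library totals and leaving out each replicate. Figures used Python 3.11.15 and matplotlib 3.10.9.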

Additional observations from a re-analysis of the deposited data

How the results depend on the processing

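The side of the median gene depended on the minimum that defines that gene. Without a minimum, SOX2 (log2 0.70) and PCSK2 (0.27) changed sign, POU4F3 (-0.48) lost its call, 1 member was below the median gene and 67 genes of the other lists were, against 33. At 0.1 FPKM, SOX2 changed sign (0.16), PCSK2 lost its call (-0.27), and 55 list genes were below. At 5 FPKM, PCSK1 changed sign (-0.0064), CHGA lost its call (0.54), SOX2 gained one (-0.84), 1 member was above and 18 list genes were below; POU4F3, ISL1 and GFI1 were then not tested. In these settings the construction (which genes enter the median) sets the change. Leaving out a replicate put SOX2 between -0.36 and -0.12, with a call without replicate 1, the cause of which was not tested. The SD of log2 FPKM with 1 replicate left out ran from 0.29 to 0.65 for CHGB, 0.034 to 0.48 for PCSK1, 0.078 to 0.35 for SOX2, 0.11 to 0.25 for PCSK2, 0.25 to 0.67 for POU4F3, 0.13 to 0.41 for ISL1 and 0.17 to 0.40 for GFI1. In counts without gene length, the log2 ratio of CHGB to CHGA was 2.70 and that of PCSK1 to PCSK2 0.25. The pseudocount and edgeR's test changed no call or direction of a member. DESeq2 size factors and library totals, run for levels and spreads, moved no member's mean by 1 SD. With ISL1 counted as a member, 4 were below. Genes with under 100 reads, such as GFI1 in replicates 1 and 3, carry more counting error than genes with many reads. The spread of GFI1 still exceeded that error, with a coefficient of variation of 20.9% against 10.4% from counting. No paired analysis was possible because there is 1 group.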
